A study of Mus musculus with 37 samples.

Results

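The T cell receptor beta (TRB) repertoires described here come from lymph nodes of 8 mice that received the same triple therapy and were taken at d95, 5 of them labelled R and 3 labelled NR. They were chosen by the treatment labels PLX+PTX+aPD-1_R and PLX+PTX+aPD-1_NR together with the time label d95, and they make up 8 of the 37 samples of the series, with every listed clonotype included. The labels do not spell out R or NR, and they give 1 library per mouse. All 8 mice were MMTV-PyMT females, in which the mammary tumor virus promoter drives the polyoma middle T oncogene in mammary epithelium. All 8 were fed PLX3397 (pexidartinib, an inhibitor of the macrophage growth factor receptor CSF1R) at 40 mg/kg a day from 80 days of age. They also received PTX at 10 mg/kg into the blood every 5 days from 85 days, and the PD-1 antibody RMP1-14 from 87 days, 1.0 mg at first and 0.5 mg every 5 days thereafter. BrdU at 50 mg/kg was given 90 minutes before collection. Other d95 groups appear where they place a value: 3 MMTV-PyMT mice on PLX3397 and PTX (PLX+PTX) and 3 on PTX alone.

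A T cell makes its beta chain by joining a variable segment (TRBV), often a diversity segment (TRBD), and a joining segment (TRBJ). Bases are trimmed from the ends and added at the joints, so the third complementarity-determining region (CDR3), which meets the peptide, differs from cell to cell. CDR3s that need few added bases arise again and again and are shared between mice as public receptors, while most others are private. PD-1 is an inhibitory receptor on activated T cells, and its blockade is used to release T cell responses to tumors. The comparison of R with NR asks whether mice given identical treatment differed in the breadth of the repertoire, in segment use, or in public receptors. Reads came from genomic DNA, so reads stand for rearranged genes rather than transcripts. In whole-node DNA, fewer T cells and less DNA entering the reaction cannot be told apart.

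The 8 libraries held 90648 to 917752 reads and 2470 to 32057 clonotypes. NR replicate 1 stands apart with 90648 reads and 2470 clonotypes, against 416493 and 559102 reads in the other NR libraries and 432954 to 917752 in R. The median clonotype of NR replicate 1 had 31 reads, against 25 in the other NR libraries and 15 to 26 in R. The main comparisons below are also given without this library. Between 14.9% and 19.8% of the clonotypes of a library had only 1 read. Of 135395 receptors defined by TRBV, TRBJ and amino acid CDR3, 121381 (89.7%) were found in 1 of the 8 mice and 14 were found in all 8.

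The receptors that differ most between the groups are shown first, as the deposited nucleotide CDR3s from the conserved cysteine codon to the last codon, 5′ to 3′. Capitals mark the bases that the deposited reference points place between the TRBV part and the TRBJ part. The first set is shown because 2 forms account for all reads of the TRBV5 TRBJ2-7 receptor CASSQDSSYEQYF in R mice. Form 1 was in all 5 R mice and form 2 in R replicates 2, 3 and 4.
TRBV5 form 1: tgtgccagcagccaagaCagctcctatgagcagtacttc
TRBV5 form 2: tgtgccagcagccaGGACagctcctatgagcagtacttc
The second set spells the TRBV26 TRBJ2-7 receptor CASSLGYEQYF, and it is shown because the mice built the same protein from different bases. R mice held 7 forms, and R replicate 4 alone held 4 of them.
TRBV26 form 1: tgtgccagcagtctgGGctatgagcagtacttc
TRBV26 form 2: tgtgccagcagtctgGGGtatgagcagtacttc
TRBV26 form 3: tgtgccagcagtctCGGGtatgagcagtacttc
TRBV26 form 4: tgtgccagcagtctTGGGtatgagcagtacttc
TRBV26 form 5: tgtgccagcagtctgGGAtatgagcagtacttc
TRBV26 form 6: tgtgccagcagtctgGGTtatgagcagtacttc
TRBV26 form 7: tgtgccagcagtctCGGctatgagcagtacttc
The third set is a receptor with a higher level in every NR mouse, TRBV26 TRBJ2-7 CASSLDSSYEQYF, which was not called. Its first form was in all 3 NR mice and in R replicate 4, the second in NR replicate 2, and the last in R replicate 1.
TRBV26 Leu-Asp form 1: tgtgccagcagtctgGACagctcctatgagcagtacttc
TRBV26 Leu-Asp form 2: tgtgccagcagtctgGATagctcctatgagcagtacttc
TRBV26 Leu-Asp form 3: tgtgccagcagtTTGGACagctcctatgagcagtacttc
These junctions are short. The capitals number 1 and 4 bases in the TRBV5 forms, 2 to 4 in the forms of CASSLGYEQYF and 3 to 6 in the last set, and none was assigned a TRBD segment.

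At equal numbers of reads, R mice carried more distinct clonotypes than NR mice. Each library was thinned at random to 90648 reads, as the mean of 20 draws. R replicates 1 to 5 then held 21650, 20571, 17709, 14875 and 16995 clonotypes, and NR replicates 1 to 3 held 2470, 11475 and 14131. Every R mouse lay above every NR mouse, although the lowest R value and the highest NR value were close. The means were 18360 ± 2745 (SD, n = 5) in R and 9359 ± 6112 (SD, n = 3) in NR, with an exact permutation p of 0.0179, 2-sided, which is the smallest that 56 regroupings can give. Adjusted over the 13 measures compared, p was 0.058, and 0 of the 13 measures passed. Thinning to equal reads left 4.19 to 6.09 reads per clonotype in R, 6.41 and 7.90 in NR replicates 3 and 2, and 36.7 in NR replicate 1. Without NR replicate 1, and thinned to 416493 reads, the means were 24228 ± 3436 (SD, n = 5) and 16321 ± 2390 (SD, n = 2), still without overlap (exact permutation p 0.0476, the smallest of 21 regroupings, adjusted 0.155).

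Of the other d95 groups, PLX+PTX overlapped both R and NR, and PTX overlapped NR only. At 90648 reads the PLX+PTX mice held 18670, 9972 and 11420 clonotypes and the PTX mice 14851, 12876 and 11649. NR replicates 2 and 3 thus lay inside the range of mice without the PD-1 antibody, as did 3 of the 5 R mice. The upper end of that range is PLX+PTX replicate 1 alone. The remaining PLX+PTX and PTX mice lay below the lowest R mouse, at 14875. NR replicate 1 lay below all other libraries of the day.

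Counts followed the same order in 3 further measures. The 10 largest clonotypes held 0.893%, 1.07%, 1.21%, 1.11% and 1.22% of normalised counts in R replicates 1 to 5, and 4.27%, 1.78% and 1.48% in NR replicates 1 to 3. Clonotypes of at least 0.1% of a library, here called expanded, held 0.233% to 0.806% in R and 18.9%, 1.86% and 1.49% in NR. That threshold is a fixed share, so its value also depends on how many clonotypes a library holds, as given below. Receptors that a mouse encoded in 2 or more nucleotide forms, here called convergent, held 9.03%, 9.17%, 9.44%, 7.96% and 8.27% in R and 2.49%, 5.83% and 7.03% in NR. In each of these measures the groups did not overlap in normalised counts, with an exact permutation p of 0.0179 and an adjusted p of 0.058. Without NR replicate 1 the means of R and NR were 1.03% and 1.57% for the 10 largest, 0.512% and 1.49% for expanded and 10.5% and 7.81% for convergent receptors. None of the 3 overlapped then either (exact permutation p 0.0476 each). On raw reads of all 8 mice, thinned alike, the 10 largest and the expanded clonotypes did overlap. The 10 largest held 0.458% to 0.747% in R and 2.05%, 0.743% and 0.760% in NR replicates 1 to 3. Expanded clonotypes held 0% to 0.312% in R and 22.8%, 0.179% and 0.252% in NR. Convergent receptors stayed apart, at 8.26% to 9.86% in R and 2.06%, 5.91% and 7.54% in NR.

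**Figure D1:**
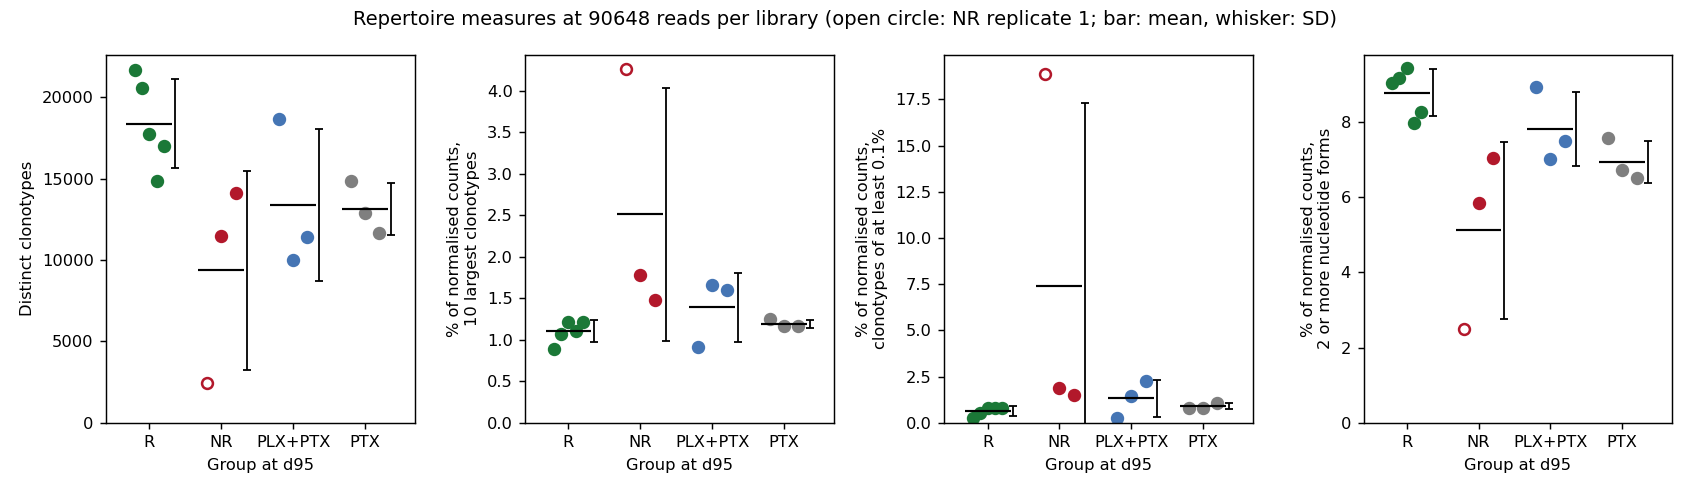
Each point is 1 mouse at d95 after thinning to 90648 reads. The panels give distinct clonotypes and the percent of normalised counts in the 10 largest clonotypes, in clonotypes of at least 0.1% and in receptors with 2 or more nucleotide forms, with group means (bars) and SD (whiskers, cut at 0). The R points lie on one side of the NR points in all 4 panels, while PLX+PTX points reach into both. The PTX points lie below every R point for distinct clonotypes and for receptors with 2 or more nucleotide forms. For the 10 largest clonotypes and those of at least 0.1% they lie below every NR point.

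When each library was instead reduced to 2470 clonotypes drawn without regard to size, the number listed in NR replicate 1, the groups overlapped in all 3. The 10 largest held 5.25% ± 0.11 (SD, n = 5) in R and 5.05% ± 0.69 (SD, n = 3) in NR (exact permutation p 0.679). Expanded clonotypes held 29.3% ± 1.73 (SD, n = 5) and 24.6% ± 5.03 (SD, n = 3), now higher in R (exact permutation p 0.0357, adjusted 0.429), and convergent receptors 1.36% ± 0.17 (SD, n = 5) and 1.74% ± 0.66 (SD, n = 3) (exact permutation p 0.196). NR replicate 1 then had the lowest value of the 8 for the 10 largest, 4.27%, and for expanded clonotypes, 18.9%. It had the highest for convergent receptors, 2.49%. The other NR mice lay closer to R. NR replicates 2 and 3 had 5.34% and 5.55% in the 10 largest, where R ran from 5.09% to 5.36%, and 26.5% and 28.3% in expanded clonotypes, where R ran from 27.9% to 32.3%. For convergent receptors they had 1.29% and 1.42%, inside the R range of 1.13% to 1.59%.

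**Figure D2:**
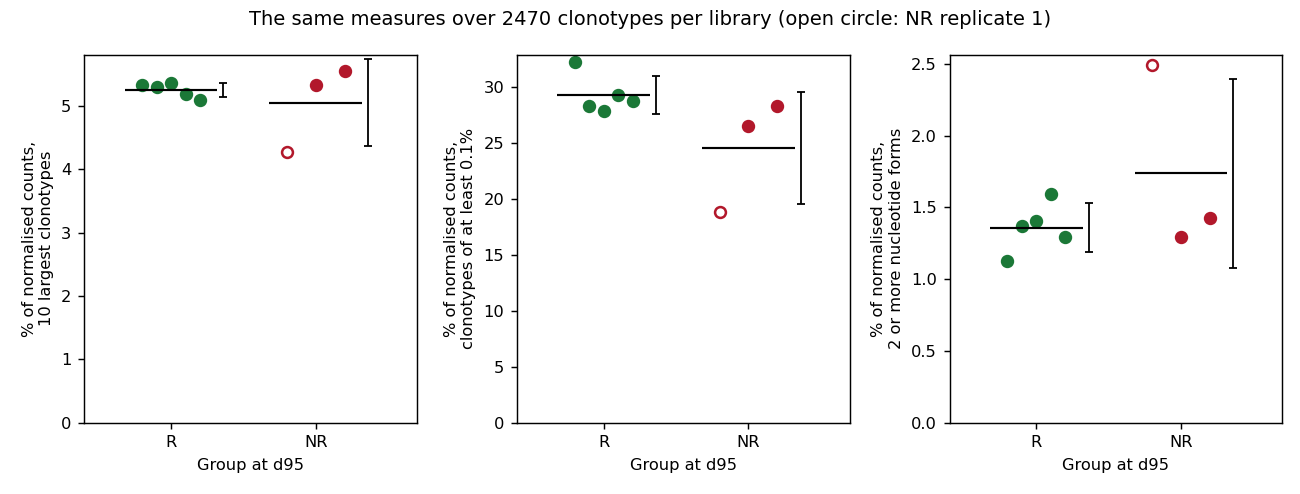
Each point is 1 of the 8 mice after reduction to 2470 clonotypes, with the percent of normalised counts in the 10 largest clonotypes, in clonotypes of at least 0.1% and in receptors with 2 or more nucleotide forms. Bars are means and whiskers SD. The groups overlap in all 3 panels, and the open circle of NR replicate 1 lies at an extreme in each.

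In the other fixed measures the groups overlapped. Clonality, which is 0 when all clonotypes are of equal size and 1 when there is only 1, was 0.0462 ± 0.0024 (SD, n = 5) in R and 0.0486 ± 0.0058 (SD, n = 3) in NR (exact permutation p 0.482). Mean CDR3 length was 13.7 residues in R, from 13.71 to 13.76, and 13.7 in NR, from 13.71 to 13.80 (exact permutation p 0.571). CDR3s of 12 or fewer residues held 17.6% ± 0.37 and 17.1% ± 1.04 of normalised counts, and those of 16 or more residues 8.53% ± 0.21 and 8.77% ± 0.49. TRBJ2 segments held 80.5% ± 0.73 in R and 79.3% ± 1.90 in NR. Hydrophobic residues at both CDR3 positions 6 and 7, a feature linked to self-reactivity, held 1.69% ± 0.21 and 1.76% ± 0.23. CDR3s with an inner cysteine held 9.26% ± 1.43 and 10.2% ± 2.07. Exact permutation p for these 5 ran from 0.268 to 0.643. The TRBV1 CDR3s named below begin with CTC and so count as having an inner cysteine. TRBV1 alone held 9.17% ± 1.45 (SD, n = 5) in R and 10.2% ± 2.05 (SD, n = 3) in NR. The inner cysteine share is therefore not a result separate from TRBV1 use. In the absence of NR replicate 1, R minus NR was 0.06 percentage points for TRBJ2, 0.08 for hydrophobic residues and 0.15 for an inner cysteine, the last 2 with the sign turned.

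The joints themselves were compared next. Pieces of TRBD1 (GACAGGG) stood in 13.4% ± 0.24 of R and 13.3% ± 0.06 of NR normalised counts, and pieces of TRBD2 (GACTGGG) in 16.1% ± 0.56 and 15.7% ± 0.99, read on the coding strand. In every library the TRBD2 piece was in 0.416% to 0.652% of clonotypes joined to TRBJ1 and in 18.4% to 20.1% of those joined to TRBJ2. In the germline TRBD2 lies downstream of the TRBJ1 cluster. A further 4 measures of the junction were added after the files were seen. Between the aligned segments lay a mean of 3.33 ± 0.04 (SD, n = 5) bases in R and 3.26 ± 0.04 (SD, n = 3) in NR (exact permutation p 0.0893, adjusted over the 4 added measures 0.286). Junctions with 0 such bases held 12.5% and 12.7%, those with an assigned TRBD segment 74.5% and 75.04%, and TRBD1 made up 55.5% and 56.6% of the assigned ones. When NR replicate 1 was left out, the difference in mean bases was 0.04 (exact permutation p 0.19), and that in pieces of TRBD2 was -0.01 percentage points.

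Segment use gave no call. Over the 24 TRBV and TRBJ segments whose mean share reached 0.1%, limma called 0 at an adjusted p of 0.05 (0.0%), and 1 had an unadjusted p under 0.05. By the same rules the count test of edgeR gave 0 and 0, and that of DESeq2 0 and 1. The segment with the smallest p was TRBV19, which encodes the Vβ6 chain. It held 4.08%, 5.12%, 5.13%, 4.24% and 5.57% of normalised counts in R replicates 1 to 5, and 7.31%, 5.71% and 5.41% in NR replicates 1 to 3. R replicate 5 lay above NR replicate 3, so the groups overlapped. The log2 difference, R minus NR, was -0.34 ± 0.12 (SE, limma adjusted p 0.381), and -0.21 without NR replicate 1 (limma adjusted p 0.95). TRBV5, the segment of the first receptor above, held 13.1% to 14.1% in R and 8.55%, 13.7% and 12.3% in NR. R exceeded NR by 0.25 ± 0.12 on the log2 scale (SE, limma adjusted p 0.764), which was 0.05 without NR replicate 1 and -0.04 when each clonotype was counted only 1 time.

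The next segments by p were all TRBJ segments. TRBJ2-1 had a log2 difference of 0.10, TRBJ1-4 of -0.14 and TRBJ1-1 of -0.11, each with a limma adjusted p of 0.868. Leaving out NR replicate 1 made them 0.03, -0.04 and 0.01. Groups of segments with known biology were read as lists. Of the 12 segments selected on by superantigens, which bind whole families of beta chains, 4 were tested and 0 called: TRBV19, TRBV1 (-0.14 on the log2 scale), TRBV26 (0.11) and TRBV29 (-0.06). Their median was -0.10, against -0.05 over all 24 segments, and TRBV1 was 0.01 without NR replicate 1. TRBV1 and TRBV29 are also the tested segments of invariant natural killer T cells, and TRBV19 is the tested segment of mucosal-associated invariant T cells. Of the 6 TRBJ1 segments 5 had a value below 0 and of the 6 TRBJ2 segments 4 had a value above 0, with 0 called. The 9 TRBV segments that the FVB/N strain lacks through a deletion had 15 to 135 reads per library, 0.0024% to 0.149% of reads, and none passed the share filter.

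**Figure D3:**
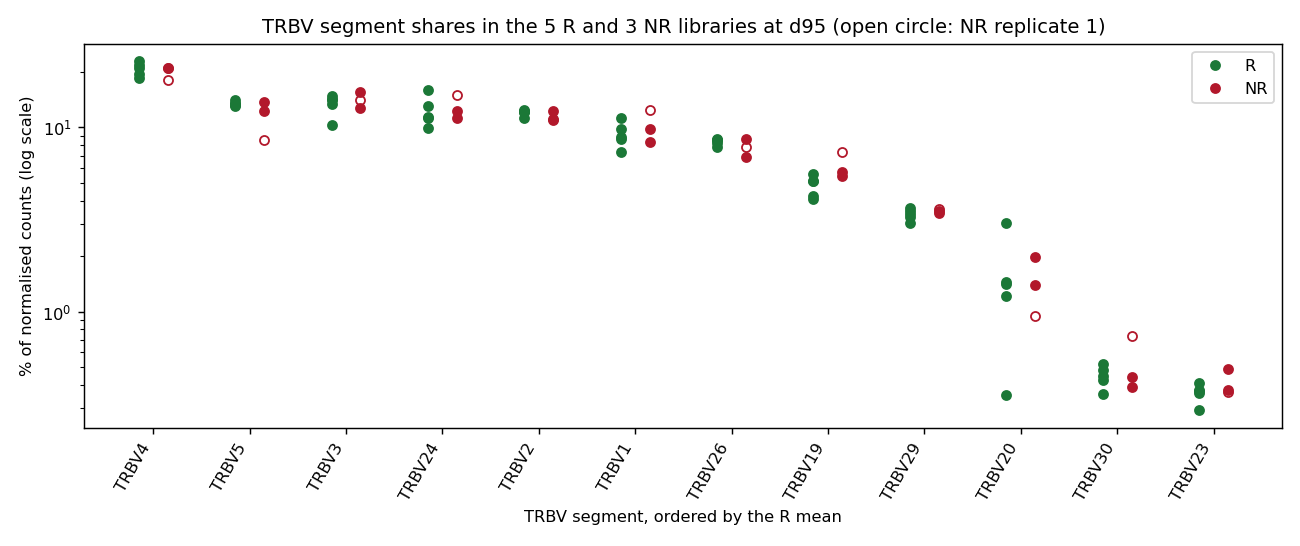
Shares of normalised counts (log scale) of the tested TRBV segments in the 5 R and 3 NR mice at d95. R and NR points overlap in every segment, and NR replicate 1 (open circle) lies above the other NR libraries for TRBV19, at 7.31%, and below them for TRBV5, at 8.55%.

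A difference that is specific to d95 was looked for by setting R minus NR at d95 against R minus NR at d105 in the 32 MMTV-PyMT libraries. Limma called 0 of the 24 segments, and for 0 of them was the unadjusted p under 0.05. The 2 days differ in reads per library (90648 to 917752 at d95, 1090573 to 2831566 at d105), which cannot be told apart from time.

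Pairs of segments were tested next. Of 102 TRBV-TRBJ pairs limma called 0 (0.0%). Unadjusted p was under 0.05 for 5 pairs, and for 6 and 9 in the count tests of edgeR and DESeq2, which called 0 as well. In 3 pairs (2.94%) every R mouse lay above every NR mouse, and in 2 (1.96%) below. TRBV19 TRBJ2-7 held 1.60% to 2.23% in R and 2.82%, 2.32% and 2.29% in NR, a log2 difference of -0.38 ± 0.15 (SE) in groups that did not overlap. TRBV19 TRBJ2-3 (-0.40) and TRBV19 TRBJ1-4 (-0.44), the latter chosen after its values were seen, had the same sign. TRBV1 TRBJ1-3 held 0.232% to 0.303% in R and 0.174%, 0.187% and 0.208% in NR, a log2 difference of 0.43 ± 0.18 (SE). TRBV1 TRBJ1-4, with the neighbouring TRBJ segment, had the opposite sign, at -0.54 ± 0.24 (SE). TRBV26 TRBJ2-3 had the highest value, 1.46 ± 0.67 (SE). It had few reads, a mean of 0.003% of reads in R and 0.0017% in NR, which the score multiplies by 75.6. Its share was 0 in NR replicate 1, and the log2 difference was 0.25 without that library. TRBV5 TRBJ2-5, at 0.66, was 0.19 without the same library, and TRBV1 TRBJ1-4, with 0.902% there, was -0.25. TRBV19 TRBJ2-7 was then -0.29, TRBV19 TRBJ2-3 -0.22 and TRBV1 TRBJ1-3 0.37. The limma adjusted p was 0.748 for TRBV19 TRBJ1-4, 0.755 for TRBV5 TRBJ2-3, 0.991 for TRBV19 TRBJ2-2 and 0.595 for the other pairs named. Without NR replicate 1, 0 of 103 pairs had an unadjusted p under 0.05.

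Public receptors gave the only calls. Receptors found in at least 7 of the 14 d95 libraries numbered 964. Limma called 2 of them (0.207%), both higher in R, and 79 had an unadjusted p under 0.05. The 2 called receptors entered the 964 only with their R libraries, as set out below. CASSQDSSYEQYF (TRBV5 TRBJ2-7) had 117, 159, 71, 222 and 49 reads in R replicates 1 to 5 and 0 in all 3 NR libraries. Scaled to a library total of 1000000 normalised counts (CPM) these were 249, 320, 323, 849 and 200. All R mice held it and no NR mouse did. The log2 difference was 5.12 ± 0.85 (SE, limma adjusted p 0.00365). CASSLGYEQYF (TRBV26 TRBJ2-7) had 90, 183, 33, 215 and 103 reads in R replicates 1 to 5, which are 161, 307, 125, 687 and 351 normalised CPM, and 0 in the NR libraries. R replicate 4 was again the highest. Its log2 difference was 4.83 ± 0.86 (SE, limma adjusted p 0.0053). Because the NR values are all 0, both differences depend on the pseudocount of 10 CPM. With a pseudocount of 1 neither passed (limma adjusted p 0.0935).

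The absence from NR is limited by sampling. A floor of 3 reads in each NR library averaged 32.1 CPM for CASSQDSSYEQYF and 26.9 CPM for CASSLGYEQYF. The R means were 12.1-fold that floor for each. Sampling of DNA is outside that floor, so these folds are no lower bounds. In an R mouse a nucleotide form of these receptors had 22 to 157 reads, where the median clonotype had 15 to 26. NR libraries also held fewer of the 964, a list drawn from more R than NR libraries. R mice held 635 to 752 of them, NR replicates 2 and 3 held 508 and 597, and NR replicate 1 held 133. The PLX+PTX mice held 702, 519 and 520, and the PTX mice 619, 566 and 513. With 2470 clonotypes per library, pairs of NR mice shared 30.3 receptors on average and pairs of R mice 26.5. The same 2 receptors were called when all 14 libraries were thinned to 90648 reads (limma adjusted p 0.0114 and 0.0198, of 721 tested). They were also called without NR replicate 1 (limma adjusted p 0.0252 and 0.0325). Both refits reused the filter over all 14 libraries, which these receptors passed only with their R libraries, and the same absence from NR. They are therefore no independent test of the calls.

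The table of 964 is not balanced between directions. A receptor entered it when found in 7 of the 14 libraries, of which 5 were R and 3 NR, so one present in all R and no NR mice entered more easily than the reverse. Both called receptors, found in 11 and 8 libraries, reached 7 only with their R libraries. The counts by direction are therefore given as a description and nothing is read from them. In 24 of the 964 receptors (2.49%) all 5 R mice had reads and no NR mouse did, and in 0 (0.0%) all 3 NR mice had reads and no R mouse did. Without NR replicate 1 these counts were 25 and 0, and after thinning 18 and 0 of 721. The median log2 difference over all 964 was 0.52, and 0.18 without NR replicate 1. Of the receptors at an unadjusted p under 0.05, 69 were higher in R and 10 lower, and without NR replicate 1, 33 and 15.

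The nucleotide forms printed above give the make-up of each mouse's copies. For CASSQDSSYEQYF, form 1 had 117, 119, 49, 65 and 49 reads in R replicates 1 to 5, and form 2 had 40, 22 and 157 reads in R replicates 2, 3 and 4. The high value of R replicate 4 thus came from form 2. For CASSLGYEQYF no form was in all R mice. Form 1 had 90 reads in R replicate 1 and 41 in replicate 4, and form 2 had 98 in replicate 2 and 34 in replicate 5. Form 3 had 85 reads in replicate 2, form 4 had 33 in replicate 3, forms 5 and 6 had 75 and 64 in replicate 4, and form 7 had 35 in replicate 4 and 69 in replicate 5. The forms differ only in the bases of 2 codons in the middle, which spell leucine and glycine.

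The CDR3 of the second receptor was present in 2 of the 3 NR mice with another TRBV. The same amino acids with TRBJ2-7 but another TRBV had 51 reads in NR replicate 2, with TRBV3, and 458 reads in NR replicate 3, with TRBV3, TRBV24 and TRBV29. In R mice these other versions had 115 to 302 reads. The CDR3 of the first receptor had 14 reads with TRBV2 in NR replicate 3, and 61 with TRBV26 in R replicate 5. NR replicate 1 had neither CDR3 with any TRBV.

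The receptors called at d95 were looked up in the d105 libraries, which the d95 fit did not use, with a test added after the data were seen. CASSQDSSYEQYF was read in all 10 triple-therapy mice of d105, with 193 to 691 reads in the 6 R and 188 to 348 in the 4 NR mice, and a log2 difference of 0.03 (exact permutation p 0.971, n = 6 and n = 4). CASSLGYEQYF was read in 3 of 6 R and 4 of 4 NR mice, a log2 difference of -1.39 (exact permutation p 0.295, n = 6 and n = 4). Its mean level was 138 ± 197 CPM (SD, n = 6) in R and 115 ± 5.64 (SD, n = 4) in NR, so the sign depends on the scale. At d95 the first was also in all 6 PLX+PTX and PTX mice, with 35 to 233 reads, and the second in the 3 PLX+PTX mice, with 30 to 179 reads, and in 0 of 3 PTX mice. Neither receptor set R apart from NR at d105, and neither was restricted to R at d95.

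**Figure D4:**
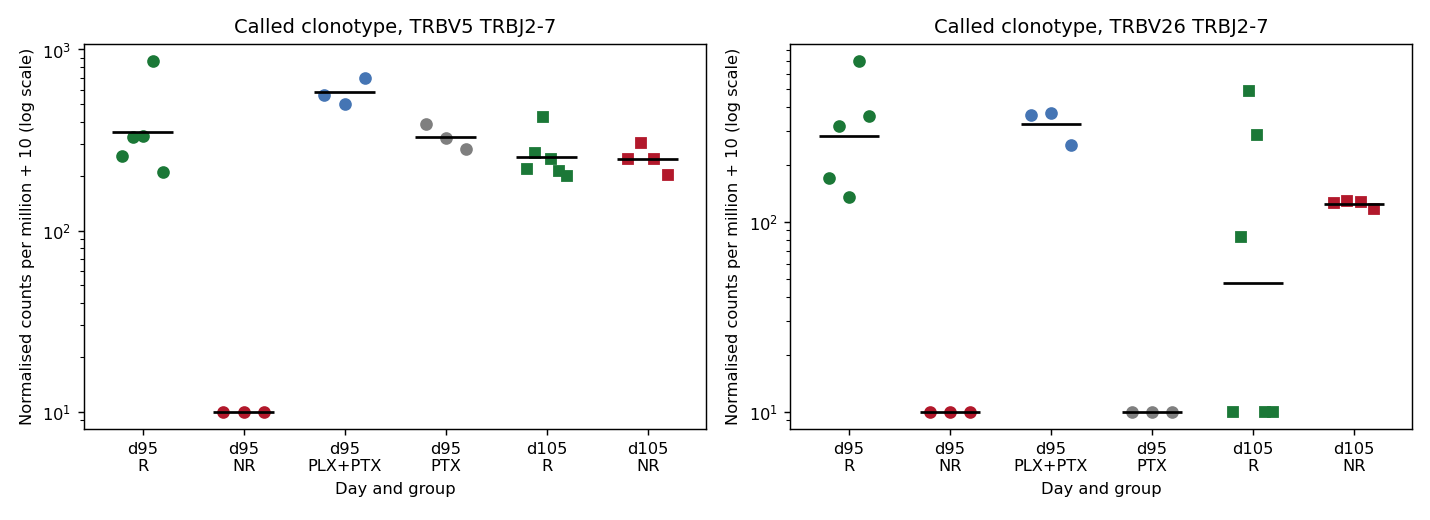
Normalised CPM plus 10 (log scale) of the 2 called receptors, with TRBV5 on the left and TRBV26 on the right. Each point is a mouse of the named day and group, and bars are means of the log2 values. At d95 all NR points lie at 10, which stands for no read, and at d105 the NR points lie among the R points for TRBV5 and, for TRBV26, above the 3 R mice with no read.

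Next by p among those higher in R came 3 receptors that did not pass, also read in 5 of 5 R and 0 of 3 NR mice. TRBV3 TRBJ2-7 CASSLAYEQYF had 261, 84, 40, 220 and 34 reads in R, TRBV2 TRBJ2-5 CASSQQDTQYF had 144, 135, 34, 48 and 55, and TRBV3 TRBJ2-2 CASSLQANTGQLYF had 146, 82, 35, 100 and 74. Their log2 differences were 4.07, 3.61 and 3.32, each with a limma adjusted p of 0.249. At d105 they were in 6, 6 and 5 of 6 R mice and in 4, 4 and 3 of 4 NR mice.

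The 5 receptors with the smallest p among those lower in R did not pass. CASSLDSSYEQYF (TRBV26 TRBJ2-7) had 89, 142 and 266 reads in NR replicates 1 to 3, and 97 and 66 in R replicates 1 and 4 with 0 in the other R mice. The NR levels were 1801, 556 and 741 normalised CPM and the R levels 173 and 212, so every NR mouse lay above every R mouse. The log2 difference was -4.78 ± 1.39 (SE, limma adjusted p 0.310). At d105 it was in 3 of 6 R and 1 of 4 NR mice, on the other side, with a log2 difference of 0.89 (exact permutation p 0.524, n = 6 and n = 4). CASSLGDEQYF (TRBV3 TRBJ2-7) had 62, 104 and 92 reads in NR and 142 and 28 in R replicates 2 and 3, which is -3.68 ± 1.23 on the log2 scale (SE, limma adjusted p 0.435). At d105 this receptor was again lower in R, at 12.5 ± 10.3 CPM (SD, n = 6) against 32.6 ± 10.7 (SD, n = 4), a log2 difference of -1.02 (exact permutation p 0.019, the smallest of the 10 receptors so tested, without adjustment). The others were a TRBV2 TRBJ2-1 receptor of 15 residues (log2 -3.12), TRBV29 TRBJ2-5 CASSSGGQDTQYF (-2.52) and TRBV1 TRBJ2-7 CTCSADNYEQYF (-2.47), the last with 2 to 13 reads where it was read. In all 5, NR replicate 1 had the highest level of the NR mice. Without it the log2 differences were -4.29, -3.05, -2.41, -1.54 and -1.86 in the order named, with limma adjusted p from 0.800 to 0.825.

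None of the 5 most abundant of the 14 receptors found in all 8 mice was called. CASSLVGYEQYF (TRBV3 TRBJ2-7) stood at 309 ± 294 CPM (SD, n = 5) in R and 402 ± 411 (SD, n = 3) in NR, and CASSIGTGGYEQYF (TRBV19 TRBJ2-7) at 246 ± 75.4 (SD, n = 5) and 466 ± 238 (SD, n = 3). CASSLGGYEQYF and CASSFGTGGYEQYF (both TRBV3 TRBJ2-7) and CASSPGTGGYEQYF (TRBV5 TRBJ2-7) had log2 differences of 0.13, -0.27 and -0.60. The limma adjusted p of these 5 ran from 0.864 to 0.996. With NR replicate 1 left out, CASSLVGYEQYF (0.21) and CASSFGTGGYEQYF (0.51) had the other sign, and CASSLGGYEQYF was 0.87. They were highly convergent, with 10 to 15 nucleotide forms each over the 8 mice. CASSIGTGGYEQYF had 3 or 4 forms in each R mouse, 4 in NR replicates 2 and 3, and 2 in NR replicate 1.

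No receptor dominated a node. By normalised share a TRBV4 TRBJ2-7 rearrangement led in 8 of 8 libraries, at 0.106% to 0.279% in R and 0.599%, 0.483% and 0.293% in NR replicates 1 to 3. The normalised score multiplies reads of this pair by 6.93, against 0.662 for TRBV19 TRBJ2-7 and 0.821 for TRBV1 TRBJ1-1. Each leader is given because it tops its library by that score. All but that of R replicate 2 had 0 to 3 bases between the segments.
R replicate 1, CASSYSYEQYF: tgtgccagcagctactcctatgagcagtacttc
R replicate 2, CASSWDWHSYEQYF: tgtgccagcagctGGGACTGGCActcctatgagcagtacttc
R replicates 3 and 5, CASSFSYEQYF: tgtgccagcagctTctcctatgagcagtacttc
R replicate 4, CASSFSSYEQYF: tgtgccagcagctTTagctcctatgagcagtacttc
NR replicate 1, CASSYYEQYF: tgtgccagcagctactatgagcagtacttc
NR replicate 2, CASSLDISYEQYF: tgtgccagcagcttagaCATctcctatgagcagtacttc
NR replicate 3, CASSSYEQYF: tgtgccagcagctcctatgagcagtacttc
The sequence of NR replicate 3 was in 12 of the 13 other d95 libraries, and that of R replicates 3 and 5 in 7. Those of R replicate 2 and NR replicate 2, with 10 and 3 bases between the segments, were in none.

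Ranked by reads, the leaders changed in 7 of the 8 libraries. The largest was a TRBV1 TRBJ1-1 clonotype of 15 residues in R replicate 5, with 1346 of 506423 reads, 0.266% (95% Wilson interval 0.252 to 0.280), which is 84.1 times the median clonotype of that library. It was also listed in 2 other d95 libraries. The next was TRBV3 TRBJ1-2 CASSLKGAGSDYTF in NR replicate 3. Its 969 of 559102 reads were 0.173% (95% Wilson interval 0.163 to 0.185), 38.8 times the median, and it was in no other d95 library.
R replicate 5, TRBV1 TRBJ1-1: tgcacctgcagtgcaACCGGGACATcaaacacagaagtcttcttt
NR replicate 3, TRBV3 TRBJ1-2: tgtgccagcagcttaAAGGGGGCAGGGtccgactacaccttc
In NR replicate 1 the leader by reads was TRBV19 TRBJ2-7 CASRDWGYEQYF, with 238 reads, 0.263% (95% Wilson interval 0.231 to 0.298) but only 7.68 times the median. The highest count in the other R libraries was 0.0753% of reads in replicate 1, 0.0702% in replicate 2, 0.0841% in replicate 3 and 0.105% in replicate 4. These were TRBV1 TRBJ1-1 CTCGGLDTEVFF, TRBV1 TRBJ2-5 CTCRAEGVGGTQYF, TRBV19 TRBJ2-7 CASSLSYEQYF and TRBV26 TRBJ1-1 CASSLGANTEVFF. In NR replicate 2 the TRBV4 leader also had most reads, 449 or 0.108% (95% Wilson interval 0.0983 to 0.118).

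Overlap between mice was measured by the Morisita-Horn index, which is 0 when nothing is shared and 1 when receptors and shares are identical. At 90648 reads the index averaged 0.122 over the 10 pairs of R mice, 0.0612 over the 3 pairs of NR mice and 0.0835 over the 15 mixed pairs. The mean within groups minus that between groups was 0.0244 (exact permutation p 0.0357, 56 regroupings). NR replicate 1 stood lowest, and its indices with the other 7 mice were 0.0239 to 0.0444. NR replicates 2 and 3 shared 0.115 with each other, and NR replicate 3 shared 0.109 to 0.135 with R mice. Without NR replicate 1 the means were 0.147 in R, 0.129 in NR and 0.129 between them (exact permutation p 0.0952). With 2470 clonotypes per library they were 0.0122, 0.0161 and 0.0153, and the difference had the other sign, at -0.0023 (exact permutation p 0.321).

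**Figure D5:**
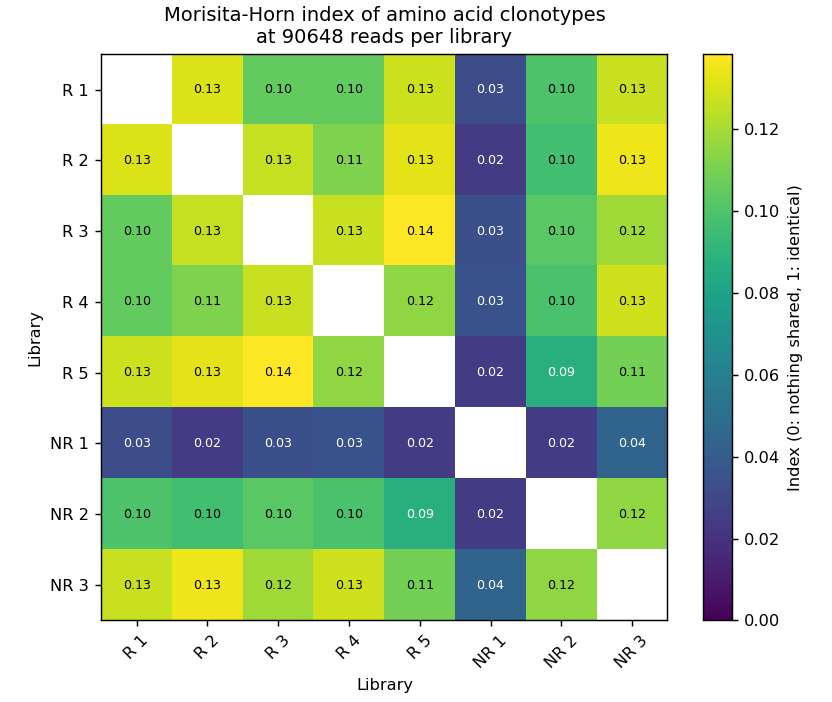
Morisita-Horn index of each pair of the 8 mice at 90648 reads, from 0 (nothing shared) to 1 (identical). The row of NR replicate 1 is the darkest, with 0.0239 to 0.0444, while NR replicate 3 has 0.109 to 0.135 with R mice and R mice 0.105 to 0.138 with each other.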

How the data were processed

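Lymph node genomic DNA of 37 mice was sequenced after amplification of rearranged TRB genes, per the labels. The deposited clone count is in counts of reads per clonotype, and the deposited clone fraction is a fraction of those reads, per the file headers. The authors' normalized and nb columns hold scores, each of which equals the clone count times a factor for the TRBV-TRBJ pair, from 0.206 to 93.0 for the normalized one, rounded. The aligner, caller, and genome build, and where the factors came from, were not given in the sources used here.

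Members, lists and tests were chosen with earlier results of these data known. Shares of normalised counts were tested with limma 3.58.1 (R 4.3.3) on log2(percent + 0.01) for segments and pairs of at least 0.1% mean share, and on log2(CPM + 10) for receptors in at least 7 of 14 d95 libraries, with all 14 in 1 fit and Benjamini-Hochberg adjustment at 0.05. edgeR 4.0.16 and DESeq2 1.42.0 on reads were alternatives. Measures and overlap were compared by exact permutation tests, 2-sided, after thinning to 90648 reads. Intervals and floors cover counting error only, since PCR reads are not independent molecules. P-values measure the spread between mice. Named were the 5 segments with the smallest p and the tested list members, 3 pairs and 5 receptors per direction with the smallest p, called receptors, the 5 most abundant of those found in all 8, and the leaders of each library. The fits were tested on simulated data. Replicate numbers follow accession order. CDR3s of 15 or more residues are given as nucleotides or by segments.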

Additional observations from a re-analysis of the deposited data

Results flagged for a closer look

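Within the 5 R mice, 5 of 55 values checked had 1 mouse far from the other 4, by a gap of over 0.71 of the group's range, and chance gives about 1 in 20. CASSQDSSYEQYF (TRBV5 TRBJ2-7) stood at 848.5 normalised CPM in R replicate 4, against 199.7 to 323 in the other R mice, and 157 of its 222 reads there were of the form with 4 bases between the segments. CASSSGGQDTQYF (TRBV29 TRBJ2-5) had 23.4 normalised CPM in R replicate 1 and no read in the other R mice. Pieces of TRBD1 stood in 13.77% of normalised counts in R replicate 2, against 13.2% to 13.3% in the others. Pieces of TRBD2 stood in 17.1% in R replicate 1, against 15.64% to 16.004%. Junctions with 0 bases between the segments held 12.96% in R replicate 3, against 12.3% to 12.4%.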

How the results depend on the processing

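No paired analysis was possible because replicate numbers follow accession order only. Over 987 comparisons of a result with an alternative, most kept their direction and their side of the threshold. The 2 receptor calls were the same 2 when any library was left out, on raw reads, on the nb count and thinned. These settings reuse the filter that both passed only with their R libraries, so they are no independent test of the calls. With a pseudocount of 1 CPM 0 were called (lowest limma adjusted p 0.0935). Requiring presence in 12 of 14 libraries removes both, and 0 of 63 were then called. Calls with a library left out were 2 to 2 for receptors and 0 to 0 for segments, pairs, measures and the day difference. With equal clonotype numbers R minus NR had the other sign for clonality (0.00664), the 10 largest (0.202), expanded (4.74) and convergent receptors (-0.379), the TRBD1 piece (-0.0131) and overlap (-0.00226). For the 10 largest and convergent receptors this rested on NR replicate 1 (4.27% and 2.49%): NR replicates 2 and 3 had 5.34% and 5.55% against an R mean of 5.25%, and 1.29% and 1.42% against 1.36%. Overlap ranged from 0.0115 to 0.0482 with a library left out, and missed 0.05 without R replicate 3 (0.0156), R replicate 5 (0.0115), NR replicate 1 (0.0160) or NR replicate 2 (0.0393). Small log2 differences changed sign: on raw reads TRBJ2-2 (0.0171) and TRBV29 (0.0385), on the nb count TRBJ2-2 (0.008) and TRBJ2-5 (-0.0295), with each clonotype counted 1 time TRBV5 (-0.0407), TRBJ2-4 (0.0079), TRBV29 (0.078) and TRBJ2-3 (-0.0103), with edgeR TRBJ1-2 (0.018), TRBJ2-2 (0.0417) and TRBV29 (0.0346), with DESeq2 TRBJ2-2 (0.0168) and TRBV29 (0.0331). Thinned without NR replicate 1 they were TRBJ2-1 (-0.0072), TRBJ1-4 (0.0121), TRBJ1-1 (0.0133), TRBJ2-4 (0.0104), TRBJ1-2 (0.033) and TRBJ2-7 (-0.0194), and thinned with it TRBV3 TRBJ2-7 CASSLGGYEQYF (-0.2535). Junctions with 0 bases gave 0.458 on raw reads, 0.0575 on the nb count and 0.204 over clonotypes of at least 10 reads, an alternative added after seeing the data, where clonality (0.00391) and hydrophobic residues (0.0287) also turned. Leaving out a library moved TRBJ1-1 from -0.1762 to 0.0063, TRBJ1-2 from -0.1749 to 0.0512, TRBJ1-3 from -0.0598 to 0.0615, TRBJ2-4 from -0.1259 to 0.0489, TRBJ2-5 from -0.043 to 0.0378, TRBJ2-7 from -0.0233 to 0.0645 and TRBV1 from -0.2758 to 0.0084. It moved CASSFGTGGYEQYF from -0.669 to 0.5125, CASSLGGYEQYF from -0.4443 to 0.8703 and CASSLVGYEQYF from -1.2009 to 0.2096. For the measures it moved CDR3 length from -0.0323 to 0.0079, CDR3s of 16 or more residues from -0.432 to 0.013, inner cysteine from -1.91 to 0.147, hydrophobic residues from -0.156 to 0.0751, the TRBD1 piece from -0.0191 to 0.131 and the TRBD2 piece from -0.0107 to 0.971. The causes were not tested. With 5 and 3 mice no permutation p can go below 0.0179, and the low clonotype number of NR replicate 1 limits what absence from NR shows.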
